A study of Mus musculus with 6 samples.

Results

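Fc gamma receptors bind the constant part of IgG antibodies, and CD300 receptors bind membrane lipids exposed on dying cells. Described here are 8 such receptor genes of mouse macrophages, taken by symbol from a table of 20938 genes. They are the Fc gamma receptor genes Fcgr1, Fcgr2b, Fcgr3 and Fcgr4 and the CD300 genes Cd300a, Cd300lb, Cd300ld and Cd300lf. The genes were chosen with the difference between the groups known, so their levels and differences are given as a description, without p-values. Counts of them that pass a fit over all genes are given later, and nothing is read from these. RNA was sequenced from cultured RAW264.7 cells, which are macrophage-like mouse cells able to form bone-resorbing osteoclasts; the labels call them macrophages and give bone marrow as their tissue. The cells of all 6 samples were driven to become osteoclasts, with an agent that the sources used here do not name. In 3 samples (DMSO) the cells received only the solvent, and in 3 (NBIF) they received neobavaisoflavone, a plant isoflavone, at 8 µM. The labels do not say that the samples of a group came from separate cultures, so the spread behind each p-value is that of these samples alone and may be technical.

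Fcgr1, Fcgr3 and Fcgr4 are activating receptors that signal through the adaptor encoded by Fcer1g, whose cytoplasmic tail carries an activation motif (ITAM) that recruits the kinase SYK. Fcgr2b carries an inhibitory motif (ITIM) in its own tail and recruits the phosphatase encoded by Inpp5d. The CD300 family is split in the same way: Cd300a and Cd300lf are inhibitory, while Cd300lb signals through the adaptor encoded by Tyrobp (DAP12) and Cd300ld through that of Fcer1g. In osteoclast precursors these same adaptors supply a costimulatory calcium signal beside that of RANK.

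The receptor genes did not all lie on the same side of DMSO in cells given NBIF. Values are FPKM, fragments for each kilobase of a gene, scaled by sequencing depth, so that levels of different genes can be set side by side. Cd300ld was 3.82 times lower in NBIF, and Fcgr2b, Cd300lb, Fcgr1 and Fcgr3 were 1.53, 1.40, 1.27 and 1.22 times lower. Cd300a was 1.49 times higher and Fcgr4 1.2 times higher. Cd300lf was low in all samples.

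**Figure D1:**
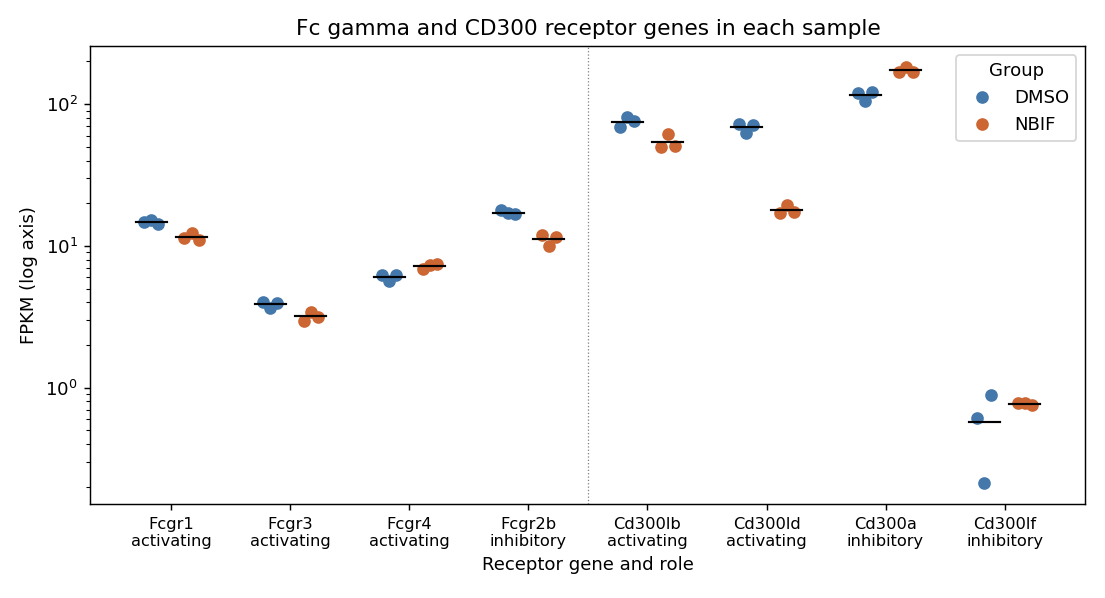
FPKM of the 8 receptor genes (log axis) in each of the 6 samples, with points for samples and a bar for the mean of the 3 samples of a group. The NBIF samples lie below all DMSO samples for Fcgr1, Fcgr3, Fcgr2b, Cd300lb and Cd300ld, and above them for Fcgr4 and Cd300a.

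Markers of macrophages moved in the same samples. Of 10 macrophage markers 8 were tested, and all 8 fell at an adjusted p under 0.05 from a limma fit over 9936 genes. Over all tested genes, 8.08% fell and 10.5% rose at that threshold. The marker lists were chosen with earlier results of these data known, so their counts are only a description. The median log2 change of the 8 markers was -1.13, against 0.04 for all tested genes. Mean FPKM was 7.18 times lower with NBIF for Cx3cr1, 4.76 times for Lyz2 (lysozyme), 4.64 times for Adgre1 (F4/80) and 3.42 times for Cd14, beside 3.82 times for Cd300ld. Itgam, Csf1r, Cd68 and Mpeg1 were 1.53, 1.38, 1.18 and 1.17 times lower. The summed level of the list was 2376 to 2547 FPKM in DMSO and 1463 to 1518 in NBIF, and most of it came from Csf1r, Cd68 and, in DMSO, Lyz2. Mrc1 and Cd163 were at or near 0 in every sample. Of 10 tested osteoclast markers, 4 fell, 1 rose and 5 did not pass, against the same shares of all tested genes. Mmp9, Acp5, Ocstamp and Ctsk were 3.70, 1.66, 1.53 and 1.33 times lower with NBIF, and Nfatc1 was 2.06 times higher. The sum of the osteoclast list was 7782 to 8385 FPKM in DMSO and 6191 to 7012 in NBIF. Its most abundant gene, Atp6v0d2, had 4116 ± 298 and 3706 ± 167 FPKM and did not pass (limma adjusted p = 0.111). The part of the marker changes in the receptor differences was not tested. In bulk RNA, fewer cells of a type and less RNA per cell cannot be told apart. Markers of B cells, mast cells and basophils, neutrophils and fibroblasts were near 0, with highest values of 0.112, 0.108, 0.309 and 0.319 FPKM, and of the NK and T cell markers only Lck passed 1 FPKM, with up to 1.17.

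In DMSO the order of the mean levels was Cd300a, Cd300lb, Cd300ld, Fcgr2b, Fcgr1, Fcgr4, Fcgr3 and Cd300lf, and among neighbours in this order only the sample ranges of Cd300lb and Cd300ld overlapped. In NBIF, Cd300ld stood apart below Cd300lb. Fcgr1 came before Fcgr2b there, with overlapping ranges, and the other places were as in DMSO. The 3 abundant CD300 genes were thus above every Fc gamma receptor gene in both groups.

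The genes lie in 3 places of the GRCm38 genome. Fcgr2b (chr1:170958617-170976547), Fcgr4 (chr1:171018920-171029761) and Fcgr3 (chr1:171051174-171064935) are neighbours on chromosome 1, with Fcer1g 164.6 kb from Fcgr3, and Fcgr1 (chr3:96282909-96293969) lies alone on chromosome 3. The CD300 genes lie in a cluster on chromosome 11, from Cd300a (chr11:114890041-114904654) through Cd300lb (chr11:114922781-114934386) and Cd300ld (chr11:114982274-114989922) to Cd300lf (chr11:115116214-115133992). All 8 have a promoter window in RefSeq (GRCm38.p6), from 250 bases before to 50 after the start. The stretches upstream of the start are shown for Cd300ld, which differed most, for Cd300a and Fcgr4, which were higher with NBIF, and for Cd300lb and Fcgr1, which were lower. Capitals mark GAGGAA or its reverse complement, the core of sites bound by PU.1, a transcription factor that macrophages and osteoclasts need.
Cd300ld (chr11:114989923-114990136, minus strand): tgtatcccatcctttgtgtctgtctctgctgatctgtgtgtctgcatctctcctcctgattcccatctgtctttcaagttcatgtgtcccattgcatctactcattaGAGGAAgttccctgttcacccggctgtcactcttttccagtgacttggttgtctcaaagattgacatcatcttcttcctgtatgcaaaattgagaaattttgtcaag
Cd300a (chr11:114889791-114890040, plus strand): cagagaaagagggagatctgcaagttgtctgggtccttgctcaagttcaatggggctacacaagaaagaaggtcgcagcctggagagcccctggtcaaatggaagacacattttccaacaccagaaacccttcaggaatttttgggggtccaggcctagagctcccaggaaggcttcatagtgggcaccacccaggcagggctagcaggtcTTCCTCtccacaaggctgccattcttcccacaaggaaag
Cd300lb (chr11:114934387-114934621, minus strand): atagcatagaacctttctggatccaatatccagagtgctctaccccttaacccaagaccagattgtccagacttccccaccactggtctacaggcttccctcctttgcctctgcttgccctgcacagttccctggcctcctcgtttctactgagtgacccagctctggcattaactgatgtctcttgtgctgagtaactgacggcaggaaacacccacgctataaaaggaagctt
Fcgr1 (chr3:96293970-96294219, minus strand): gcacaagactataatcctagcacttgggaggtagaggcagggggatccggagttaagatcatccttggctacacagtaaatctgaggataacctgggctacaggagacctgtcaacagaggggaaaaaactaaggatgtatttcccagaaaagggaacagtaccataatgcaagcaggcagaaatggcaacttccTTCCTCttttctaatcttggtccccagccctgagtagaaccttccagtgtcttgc
Fcgr4 (chr1:171018676-171018919, plus strand): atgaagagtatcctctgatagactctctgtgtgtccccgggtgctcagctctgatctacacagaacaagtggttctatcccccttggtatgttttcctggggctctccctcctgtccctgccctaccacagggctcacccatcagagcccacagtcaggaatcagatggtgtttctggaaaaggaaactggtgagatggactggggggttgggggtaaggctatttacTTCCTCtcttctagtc
The PU.1 core was found on either strand in the 300-base windows of 6 of the 8 genes, all but Fcgr2b and Cd300lb, while 28.3% of 32851 mouse promoter windows held it. It stands in the windows of Cd300ld, Fcgr1 and Fcgr3, lower with NBIF, and in those of Cd300a and Fcgr4, higher with NBIF. Fcgr2b and Cd300lb, without it, were also lower. The share of 28.3% is over windows, and a gene can have several. An interferon gamma activated site (TTCNNNGAA, in 8.30% of windows) was found for Fcgr1, and an interferon-stimulated response element (in 3.44%) for Fcgr4. The core of the antioxidant response element that NRF2 binds (TGACNNNGC, in 12.4% of windows) was found for Cd300lb. No window of the 8 genes held the AP-1 site TGANTCA (in 7.81% of windows) or the M-box TCACGTG bound by MITF (in 3.77%). The motifs were chosen after the windows had been seen, and a match is a description of the letters, not of binding.

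Among the activating Fc gamma receptors, Fcgr1, the high-affinity IgG receptor, had 14.6, 15.3 and 14.2 FPKM in DMSO 1, 2 and 3 and 11.4, 12.4 and 11.03 FPKM in NBIF 1, 2 and 3. Its groups did not overlap, and its log2 change on the scale of log2(FPKM + 1) was -0.32 ± 0.06 (SE from the fit over all genes, n = 3 per group). Fcgr3, which binds IgG immune complexes with low affinity, had 4.02, 3.64 and 3.95 FPKM in DMSO and 2.96, 3.43 and 3.16 FPKM in NBIF. The lowest DMSO sample was close above the highest NBIF sample, and the log2 change was -0.22 ± 0.08. Fcgr4, a receptor for IgG2a and IgG2b complexes, stood on the other side, with 6.18, 5.66 and 6.20 FPKM in DMSO and 6.82, 7.38 and 7.46 FPKM in NBIF. All 3 NBIF samples lay above all DMSO samples, and the log2 change was 0.23 ± 0.07. Fcgr4 lies between Fcgr2b and Fcgr3 on chromosome 1, and both of these were lower. Raising the pseudocount to 5 gave log2 changes for Fcgr3 and Fcgr4 of -0.12 and 0.15.

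The inhibitory receptor gene Fcgr2b had 17.8, 16.97 and 16.7 FPKM in DMSO and 12.0, 10.04 and 11.5 FPKM in NBIF. The groups were clearly apart and the log2 change was -0.58 ± 0.07, the lowest among the 4 Fc gamma receptor genes. The summed FPKM of the 3 activating genes was 24.6 ± 0.229 in DMSO and 22.0 ± 1.06 in NBIF (mean ± SD, n = 3), since the higher Fcgr4 partly made up for the lower Fcgr1 and Fcgr3. Per unit of Fcgr2b, the activating sum was 1.40, 1.45 and 1.46 in DMSO and 1.76, 2.31 and 1.88 in NBIF. The ratio was higher in each NBIF sample than in any DMSO sample, with NBIF 2 the highest, which also had the lowest Fcgr2b. It concerns RNA levels, and protein on the cell surface was not measured.

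**Figure D2:**
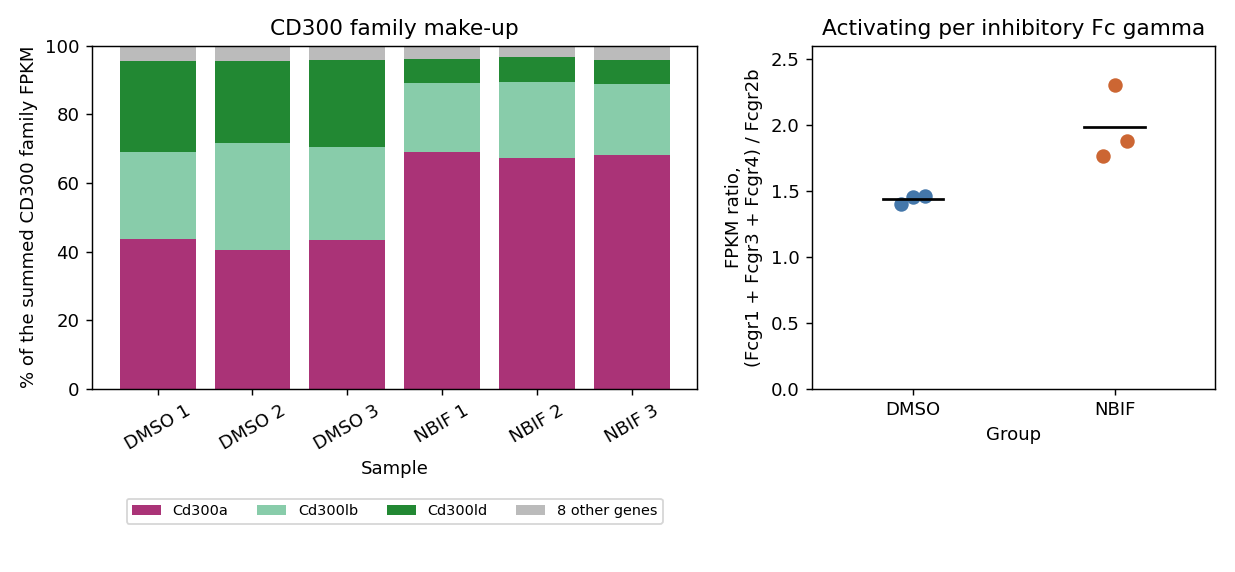
Left, percent of the summed FPKM of 11 CD300 family genes held by Cd300a, Cd300lb, Cd300ld and the other 8 genes in each sample; right, the ratio of the summed FPKM of Fcgr1, Fcgr3 and Fcgr4 to Fcgr2b, with points for samples and a bar for the group mean. Cd300a holds 40.6% to 43.8% of the sum in DMSO and 67.2% to 69.0% in NBIF, and the ratio is 1.40 to 1.46 in DMSO and 1.76 to 2.31 in NBIF.

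Among the activating CD300 genes, Cd300ld, which encodes a receptor that pairs with the FcR gamma chain, had 72.1, 62.4 and 71.3 FPKM in DMSO and 17.1, 19.4 and 17.3 FPKM in NBIF. Every NBIF sample was far below every DMSO sample, and the log2 change was -1.88 ± 0.07 (SE). Of all tested genes, 0.0805% had a lower log2 change, a place that only describes a gene chosen with this contrast known. Cd300lb, whose product pairs with DAP12, had 68.8, 81.1 and 76.2 FPKM in DMSO and 49.5, 61.3 and 51.0 FPKM in NBIF. Its highest NBIF sample was below its lowest DMSO sample, and the log2 change was -0.48 ± 0.09.

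Of the inhibitory CD300 genes, Cd300a, a receptor for phosphatidylserine and phosphatidylethanolamine, was the most abundant gene of the 8. It had 119.3, 106.0 and 122.2 FPKM in DMSO and 168.6, 183.5 and 167.3 FPKM in NBIF. The groups did not overlap and the log2 change was 0.58 ± 0.06. Cd300lf, known in mice as an inhibitor of osteoclast formation and as the receptor of murine norovirus, had 0.612, 0.212 and 0.883 FPKM in DMSO and 0.777, 0.776 and 0.754 FPKM in NBIF. Its mean was below the minimum of 1 FPKM set for the fit, so it has no fitted change. The DMSO samples of Cd300lf spread on both sides of the NBIF samples. Rab37, which overlaps Cd300lf on the other strand, was listed at 0 in all 6 samples.

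**Figure D3:**
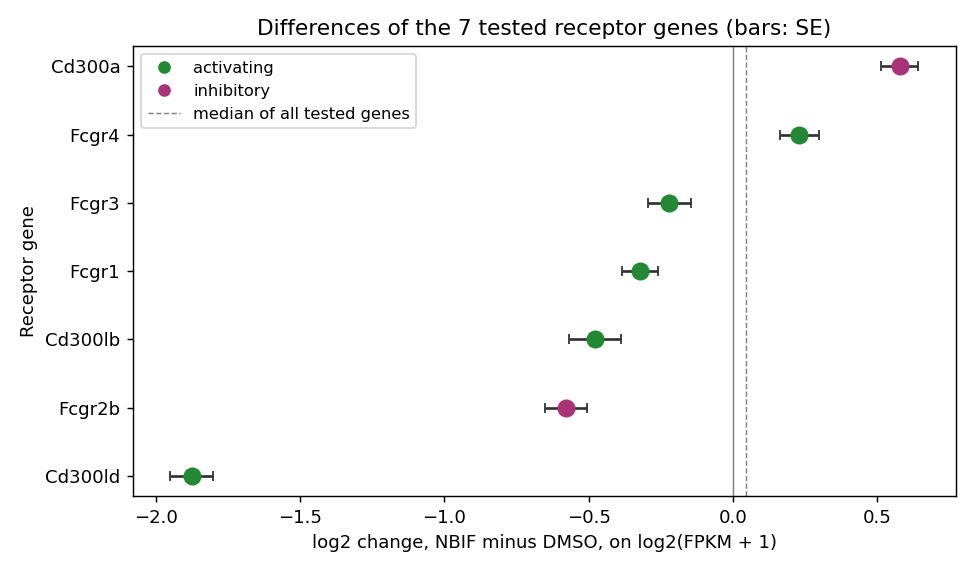
Log2 change (NBIF minus DMSO, on log2(FPKM + 1)) of the 7 receptor genes whose mean reached 1 FPKM, with bars for the SE and colours for activating and inhibitory receptors; the dashed line is the median of all tested genes. The points run from -1.88 for Cd300ld to 0.58 for Cd300a, and both roles occur on both sides of 0.

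The sum of 11 CD300 family genes was 272 ± 10.2 FPKM in DMSO and 254 ± 16.3 FPKM in NBIF (mean ± SD, n = 3), with overlapping groups, while its make-up differed. Cd300a held 43.8%, 40.6% and 43.4% of the sum in DMSO and 69.0%, 67.2% and 68.1% in NBIF. Cd300ld held 26.4%, 23.9% and 25.3% in DMSO and 6.99%, 7.11% and 7.06% in NBIF. There were 1.66 to 1.71 FPKM of Cd300a for each FPKM of Cd300ld in DMSO and 9.44 to 9.87 in NBIF. These shares compare genes of 1 sample, so a common scaling of that sample does not move them.

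Of the other CD300 genes only Cd300c2 reached the minimum for the fit. Cd300c2, the nearest neighbour of Cd300ld, had 9.73 ± 0.388 FPKM in DMSO and 8.23 ± 0.507 in NBIF (log2 change of -0.22, limma adjusted p = 0.0519). Its adjusted p was 0.0467 without DMSO 3, 0.0487 with the minimum raised to 5 FPKM, 0.0327 after median-ratio scaling and 0.0253 after quantile normalization. Cd300ld3 and Cd300ld5, also of the cluster on chromosome 11, were under the minimum for the fit. They had 0.751 ± 0.0922 and 0.688 ± 0.0179 FPKM in DMSO and 0.191 ± 0.0926 and 0.183 ± 0.116 FPKM in NBIF. Their groups did not overlap, but 81.5% of the 75-base windows of the Cd300ld3 transcript and 100% of those of Cd300ld5 also occur in transcripts of other genes, so the values of the single genes are uncertain. Cd300c, Cd300e and Cd300lg stayed below 0.3 FPKM in every sample, and Cd300ld4 was listed at 0 in all.

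**Figure D4:**
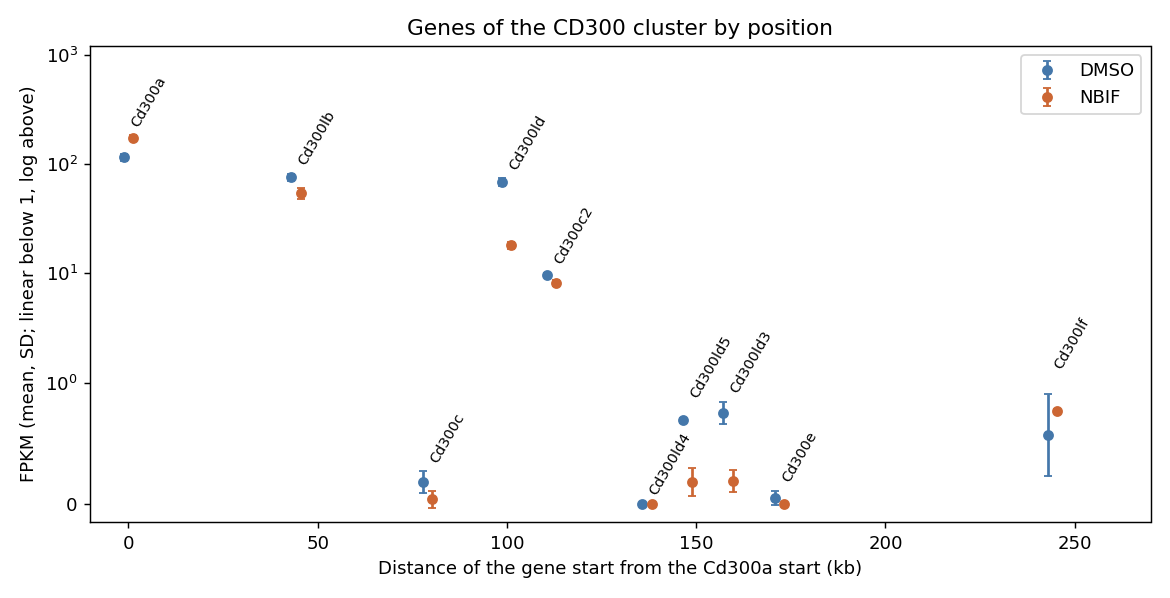
FPKM of the CD300 cluster genes (mean and SD of 3 samples per group, axis linear below 1 and logarithmic above) against the distance of each gene's start from the Cd300a start. Cd300a, at 0 kb, is higher with NBIF, while Cd300lb at 44.3 kb and Cd300ld at 99.9 kb are lower.

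In the longest protein-coding transcript of each receptor gene, at most 9.25% of the 75-base windows also occur in transcripts of other genes. Matches on either strand were counted, and the window length was chosen here. In the GENCODE transcripts, 7.38% of the 75-base windows of Fcgr3 are also in Fcgr2b, and 2.71% of those of Fcgr2b are in Fcgr3. Fcgr2b shares 9.25% in all, with 6.14% in Cplx2, 5.13% in Rab3c and 4.90% in the gene model Gm47409. Cd300ld shares 2.33% of its windows with Cd300lf, which holds them as 3.31% of its own. Reads from such windows cannot be assigned to 1 gene by sequence, which touches Cd300lf most since Cd300ld was far more abundant, and the sources used here do not say how the authors counted such reads. Cd300a shares 1.44% with Cd300c2, and Fcgr1, Fcgr4 and Cd300lb share none with any other gene.

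Of the 8 receptor genes, 7 reached a mean of 1 FPKM and entered the limma fit over 9936 genes. At an adjusted p under 0.05, 4 were lower and 2 higher with NBIF, where 8.08% of all tested genes were lower and 10.5% higher (18.6% either way, 1850 genes). Groups that did not overlap were seen for 5 genes lower and 2 higher, against 14.3% and 24.6% of all tested genes (39.0% either way). Since the genes were chosen from this contrast, nothing is read from these counts. The median log2 change was -0.32 over the 7 genes and 0.04 over all tested genes. The split over all genes was 1047 higher and 803 lower (56.6% higher), and 705 and 1003 (41.3% higher) after median-ratio scaling. The number of all genes called was 1173 without DMSO 1, 999 without NBIF 1, 1150 without NBIF 2 and 1150 without NBIF 3.

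The adaptor genes through which the receptors signal were measured in the same samples. Tyrobp, the partner of Cd300lb, fell from 166.8 ± 1.41 to 114.4 ± 7.63 FPKM (log2 change of -0.54 ± 0.05, limma adjusted p = 0.000399). Fcer1g, the partner of Fcgr1, Fcgr3, Fcgr4 and Cd300ld, had 248.9, 237.6 and 254.3 FPKM in DMSO and 273.1, 258.9 and 284.3 FPKM in NBIF. Its samples did not overlap between the groups, yet it did not pass the test (log2 change of 0.14 ± 0.05, adjusted p = 0.0858). The adaptor gene Hcst (DAP10) was low at 1.22 ± 0.280 FPKM in DMSO against 1.14 ± 0.120 with NBIF (adjusted p = 0.810). There were 9.65 to 10.4 FPKM of Fcer1g for each FPKM of the activating Fc gamma receptors in DMSO and 11.2 to 13.1 in NBIF. This ratio leaves out Cd300ld, with a mean of 68.6 FPKM in DMSO and 17.9 in NBIF. Among the receptor genes described here, it was the most abundant partner of Fcer1g in DMSO. Tyrobp per Cd300lb was 2.06 to 2.45 in DMSO and 1.73 to 2.37 in NBIF, ranges that overlap.

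Downstream, 4 of 27 tested genes for kinases and scaffolds of activating receptors fell, 0 rose and 23 did not pass, where 8.08% of all tested genes fell and 10.5% rose (median log2 change of -0.01 against 0.04 for all tested genes). The Src family kinase gene Fgr fell from 3.44 ± 0.142 to 1.28 ± 0.285 FPKM (log2 change of -0.97 ± 0.10, limma adjusted p = 0.000483). As a low gene its log2 change depends on the pseudocount, and was -1.38 with 0.1 and -0.43 with 5. The adaptor protein genes Blnk and Gab2 fell by 0.46 and 0.41 on the log2 scale, and the exchange factor gene Vav3 fell by 0.25. The call of Vav3 was lost without DMSO 1, without DMSO 2 and without any 1 of the NBIF samples (adjusted p of 0.0678 to 0.0912). Syk itself, the kinase that binds the ITAM, stood at 46.9 ± 1.90 FPKM with DMSO against 49.0 ± 0.874 with NBIF (adjusted p = 0.401).

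Of 9 tested genes for phosphatases and scaffolds of inhibitory receptors, 2 fell, 1 rose and 6 did not pass, against the same shares of all tested genes. The scaffold genes Dok2 and Dok1 fell, by 0.61 ± 0.12 and 0.41 ± 0.05 on the log2 scale (limma adjusted p = 0.00880 and 0.00103). Pag1, a membrane anchor for the kinase CSK, rose by 0.28, but its call was lost in 8 of 14 alternatives, with an adjusted p of 0.0546 to 0.116 in these. Inpp5d (SHIP1), the phosphatase that binds Fcgr2b, had 32.4 ± 1.88 FPKM with DMSO against 35.9 ± 2.59 with NBIF (adjusted p = 0.177). Ptpn6 (SHP-1), which binds the inhibitory tails of CD300 receptors, had 77.7 ± 5.97 and 77.6 ± 2.46 FPKM (adjusted p = 0.989). With the adaptors, 7 of 39 tested signalling genes fell and 1 rose, against 8.08% and 10.5% of all tested genes, and the median log2 change was -0.01 against 0.04. After median-ratio scaling 8 of the 39 fell and 0 rose, where 1003 of all 9936 tested genes fell and 705 rose.

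**Figure D5:**
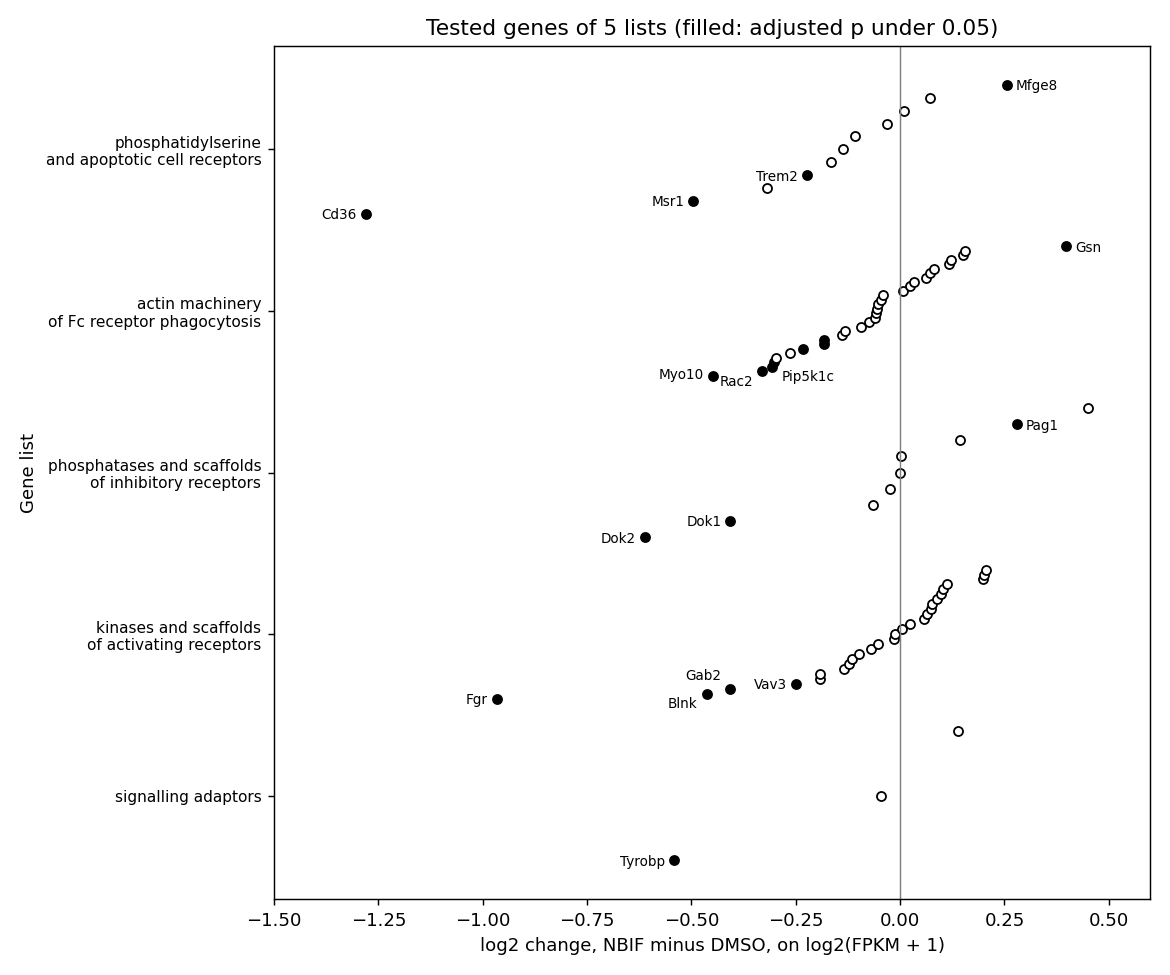
Log2 change (NBIF minus DMSO, on log2(FPKM + 1)) of each tested gene of 5 lists of signalling and phagocytosis genes, 1 point per gene. Filled points passed at a limma adjusted p under 0.05, and up to 4 of them per list are named; most points are open, and on this scale the lowest are Cd36, Fgr and Dok2, an order that changes for Fgr with the pseudocount.

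Fc receptors drive the uptake of antibody-coated particles by actin remodelling. Of 30 tested genes of this machinery, 7 fell, 1 rose and 22 did not pass, where 8.08% of all tested genes fell and 10.5% rose (median log2 change of -0.06 against 0.04 for all tested genes). Myo10, a motor of phagocytic cups, fell from 53.8 ± 1.39 to 39.2 ± 1.78 FPKM (limma adjusted p = 0.000797), and the small GTPase gene Rac2 from 215.9 ± 11.8 to 171.2 ± 2.86 FPKM (adjusted p = 0.00281). Gsn, the actin-severing protein gelsolin, rose from 360.9 ± 21.3 to 475.5 ± 17.3 FPKM (adjusted p = 0.00162). The lipid kinase gene Pip5k1c fell by 0.31 on the log2 scale, a call lost without a filter on low values, without DMSO 1 and without any 1 of the NBIF samples (adjusted p of 0.0599 to 0.0736).

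CD300 receptors share their lipid ligands with other receptors for dying cells. Of 11 tested genes of that list, 3 fell, 1 rose and 7 did not pass, where 8.08% of all tested genes fell and 10.5% rose. The median log2 change was -0.14 against 0.04 for all tested genes, and 8 more genes of the list were below the minimum for the fit. Cd36, a scavenger receptor for oxidised lipids, fell from 129.4 ± 16.7 to 52.5 ± 2.63 FPKM (log2 change of -1.28 ± 0.09, limma adjusted p = 5.16e-05). The scavenger receptor gene Msr1 fell by 0.50 on the log2 scale and Trem2, a lipid receptor that signals through DAP12, by 0.22. Mfge8, a protein that bridges phosphatidylserine to integrins, rose by 0.26. The call of Trem2 was lost in 7 of 14 alternatives and that of Mfge8 in 4 of 14, with an adjusted p of up to 0.127 and 0.0810.

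Among other Fc receptor genes, Fcrl1, an Fc receptor-like gene known from B cells, fell from 28.3 ± 1.94 to 19.3 ± 0.331 FPKM (log2 change of -0.53 ± 0.06, limma adjusted p = 0.000789). Fcgrt, the neonatal Fc receptor that recycles IgG, had 5.20 ± 0.113 FPKM with DMSO against 4.87 ± 0.326 with NBIF (adjusted p = 0.457). The other 12 genes of that list were below the minimum for the fit, and 7 were listed at 0 in all samples, among them the IgE receptor gene Fcer1a.

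Other genes within 250 kb of a receptor gene numbered 50 in the table, of which 22 were tested, 4 rose, 2 fell and 16 did not pass, where 10.5% of all tested genes rose and 8.08% fell. Near the Fc gamma receptors of chromosome 1, B4galt3 rose by 0.34 and Dusp12 by 0.33, while Sdhc fell by 0.27 on the log2 scale. Slc9a3r1, 29.3 kb from Cd300lf, rose by 0.23. The call of Dusp12 was lost in 4 of 14 alternatives, that of Slc9a3r1 in 10 of 14, and that of Sdhc without NBIF 1 (limma adjusted p of 0.0561 to 0.0803, 0.0551 to 0.133, and 0.0502). Of the 7 tested neighbours on chromosome 11, 1 rose and 0 fell, while Cd300ld and Cd300a differed there by -1.88 and 0.58. Rpl38 and Cd300c2, among these neighbours, had log2 changes of -0.60 and -0.22 and narrowly missed the threshold (limma adjusted p = 0.0509 and 0.0519). The other tested neighbours there had log2 changes of 0.05 to 0.23. Cd300ld3 and Cd300ld5, which were lower with NBIF, lie there too but were below the minimum for the fit.

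The mean profile of the 7 receptor genes, on log2(FPKM + 1) centred over the 6 samples, was closest to those of Foxm1, Vsir, Dhrsx, Lamc1 and Tmem229b among all other tested genes. Their Euclidean distances from it were 0.0584, 0.0624, 0.0750, 0.0816 and 0.0831. Each was lower with NBIF, by 0.34 to 0.41 on the log2 scale, which follows from picking them by closeness to this mean. The mean joins 5 receptor genes that were lower with 2 that were higher, so it is not the profile of each receptor. The listing is a description over 6 samples in 2 groups.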

How the data were processed

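The values are FPKM per gene symbol, deposited by the authors in a single table for all 6 samples. Per the submitters' processing notes, HISAT2 2.0.5 and featureCounts 1.5.0-p3 were among the tools, in roles that the notes leave unsaid. The notes name the human build GRCh38 although 97.9% of the symbols matched mouse genes, which makes the build uncertain. The sources used here do not state gene lengths, annotation, strand setting or the handling of shared reads. Total depth is unknown, so values carry no counting interval. The most frequent ratios between values under 0.05 FPKM, each seen in 20 to 26 of 305 to 354 genes, put the relative depth at 0.889 to 1.09 times that of DMSO 1. The FPKM of a sample summed to between 484603 and 494172.

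Samples were grouped by the treatment in the labels and numbered by their titles. A mean of 1 FPKM or more was required of a gene, and limma 3.58.1 (R 4.3.3) was fitted to log2(FPKM + 1) (eBayes with a trend, two-sided, Benjamini-Hochberg over 9936 genes, threshold 0.05). Fold changes on this scale understate those of low genes, while folds of mean FPKM carry no pseudocount. The receptor genes and the gene lists were chosen with earlier results of these data known. Named are the receptor genes, the tested genes of their families and adaptors, up to 4 passing genes with the largest changes per list (marker lists excepted) and near the receptor genes, and the 5 genes nearest in profile. Syk, Inpp5d, Ptpn6, markers and low family members were named after their values were seen. Positions and transcripts are from GENCODE M21 (GRCm38) and promoters from RefSeq (GRCm38.p6).

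The fit was tested on simulated data. The 14 alternatives changed the pseudocount, filter, scaling, a replicate block and the samples used.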

Additional observations from a re-analysis of the deposited data

How the results depend on the processing

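Each of the 7 fitted receptor genes had the same sign under all the alternatives that could be computed for it (97 values). The log2 change was -1.94 to -1.68 for Cd300ld, -0.63 to -0.45 for Fcgr2b, -0.57 to -0.42 for Cd300lb, -0.37 to -0.25 for Fcgr1, -0.28 to -0.12 for Fcgr3, 0.15 to 0.26 for Fcgr4 and 0.51 to 0.62 for Cd300a. With a mean of at least 5 FPKM required, Fcgr3 was not fitted. The log2 ratio of Fcgr2b to the summed activating genes differed by -0.46 between the groups, and by -0.54 to -0.34 when 1 sample was left out. Pseudocounts and filters do not enter this ratio. The number of all genes called was 999 to 1891 when 1 sample was left out. The number of receptor signalling genes called, 8 in the fit reported, was 6 to 8 under all alternatives. Same-numbered samples of both groups deviated together only weakly, with correlations of 0.0784, 0.126 and 0.0355. NBIF 2 and NBIF 3 correlated best with the DMSO sample of the same number, while NBIF 1 correlated best with DMSO 3 (0.0974). Since all these correlations were weak, the numbers were not taken to pair samples. With the replicate number as a block, 1632 genes and 8 signalling genes were called, and the ratio was unchanged at -0.46. Since total depth is unknown, no limit of detection can be given for Cd300lf.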
